A study of Mus musculus with 14 samples.

Results

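Interferon-stimulated genes are genes that cells switch on when interferons bind their receptors. A list of 44 mouse genes was described here, 30 of them grouped as type I interferon targets and 14 as IFN-gamma targets, and its genes were found by gene symbol among the 18193 genes of the array. Of the 44 genes, 41 had a probe set with that symbol alone and 33 were bright enough to be tested (20 type I and 13 IFN-gamma targets). Isg15 and Gbp4 had only probe sets shared with another gene, and Ifi44 had none named here. Irf7, Ifit1, Ifit3, Mx2, Oasl1, Oasl2, Ddx60 and Dhx58 were dim on every array (4.9 to 32.0 intensity units) and were not tested. The limit of 27.69 units applied to the mean over all arrays, so 5 tested genes lay under it at some times: Stat2 and Usp18 at 36 and 48 h, Mx1 and Oas2 at 48 h, and Rsad2 at 48 h with Antagomir-31. Changes measured from such levels depend on the floor of the array.

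The samples were Th1 rep cells, mouse T helper type 1 cells that had been restimulated repeatedly. They were grown from naive CD4+CD62Lhi cells of spleen and lymph nodes of OT-II mice, aged 6 to 10 weeks, whose transgenic T cell receptor recognises an ovalbumin peptide. All cultures had received peptide on irradiated antigen-presenting cells depleted of CD90.2+ cells, IL-12 and anti-IL-4, with IL-2 from the second stimulation on. After several rounds of stimulation the cells took up Antagomir-31, which is antisense to the microRNA miR-31, or the scrambled control Antagomir-SCR, each at 1 µM for 1.5 h without serum. Both groups were then stimulated on plate-bound anti-CD3 and anti-CD28 with IL-12, anti-IL-4 and IL-2, and RNA was taken at 36, 48 or 72 h. Per treatment, 36 h and 48 h were covered by 2 arrays each and 72 h by 3. Nothing in the labels ties a replicate to its own culture, and the p-values therefore describe array-to-array spread that may be technical. The arrays gave no level of miR-31.

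Type I interferons and IFN-gamma bind different receptors, and both receptors signal through Janus kinases to STAT proteins. Type I interferons assemble ISGF3, a complex of STAT2, IRF9 and another STAT, which binds the interferon-stimulated response element (ISRE). IFN-gamma leads to STAT dimers that bind the gamma-activated site (GAS). Th1 cells are known as producers of IFN-gamma, and they can respond to it as well as to type I interferons. Many of the genes, such as the guanylate-binding proteins, respond to both kinds of interferon, so the arms are a convention.

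The sequence of the miRNA that the antagomir opposes is shown because the seed defines its targets. It lies on the minus strand of chromosome 4 at chr4:88910614-88910635 (RefSeq, GRCm38.p6), and capitals mark bases 2 to 8, the seed.
mmu-miR-31-5p: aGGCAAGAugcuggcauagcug

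Promoter sequences of the members were read from RefSeq windows of GRCm38.p6, 250 bases before to 50 bases after a gene start. The letters GAAANNGAAA, called here the ISRE core, and TTCNNNGAA, called the GAS core, were searched on both strands. Windows were at hand for 33 of the 44 genes (41 windows). An ISRE core was in 18 of these windows (43.9%), against 3.44% of all 32851 windows, and a GAS core was in 10 (24.4%), against 8.3% of all windows. By gene, 12 of 22 type I targets and 5 of 11 IFN-gamma targets with a window held an ISRE core, and 5 of 22 and 5 of 11 a GAS core. The stretches below give ISRE or GAS cores in capitals with up to 20 flanking bases, 5′ to 3′ in the direction of transcription. The genes shown were chosen from those with a core. Of other genes named below, Psmb9, Tap1, Dtx3l and Xaf1 had windows without a core. Usp18, Mx1, Parp9, Parp14 and Zbp1 had no window at hand. A match is a run of letters and says nothing of binding.
Gbp2, chr3:142620584-142620633 (plus strand, ISRE core): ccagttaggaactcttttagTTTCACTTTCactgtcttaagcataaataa
Gbp3, chr3:142559979-142560034 (plus strand, overlapping ISRE cores): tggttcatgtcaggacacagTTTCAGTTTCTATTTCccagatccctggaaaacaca
Igtp, chr11:58199491-58199551 (plus strand, GAS core and ISRE core): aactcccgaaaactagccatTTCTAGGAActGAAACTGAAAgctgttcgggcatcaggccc
Irgm2, chr11:58214882-58214942 (plus strand, GAS core and ISRE core): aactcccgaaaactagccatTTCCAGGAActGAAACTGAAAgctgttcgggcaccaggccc
Irgm1, chr11:48871415-48871470 (minus strand, overlapping ISRE cores): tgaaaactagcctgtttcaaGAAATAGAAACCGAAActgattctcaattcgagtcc
Irf1, chr11:53769904-53769952 (plus strand, GAS core): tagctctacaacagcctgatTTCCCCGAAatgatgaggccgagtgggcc
Psmb8, chr17:34198078-34198126 (plus strand, GAS core): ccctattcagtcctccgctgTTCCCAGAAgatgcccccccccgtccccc
Oas1a, chr5:120907510-120907565 (minus strand, overlapping ISRE cores): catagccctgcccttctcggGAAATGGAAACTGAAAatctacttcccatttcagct
Ifih1, chr2:62646206-62646243 (minus strand, ISRE core): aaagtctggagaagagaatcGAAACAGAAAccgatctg

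Igtp and Irgm2, neighbouring genes for immunity-related GTPases, had a GAS core and an ISRE core side by side in nearly the same surroundings. Irf1 and Psmb8 had a GAS core and no ISRE core in the window. Oas1a and Ifih1, for an enzyme and a sensor of double-stranded RNA, had ISRE cores, and in Ifih1 the core lay after the gene start. Oas1a also had a GAS core that starts at position -98 from the gene start, outside the stretch shown.

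**Figure D1:**
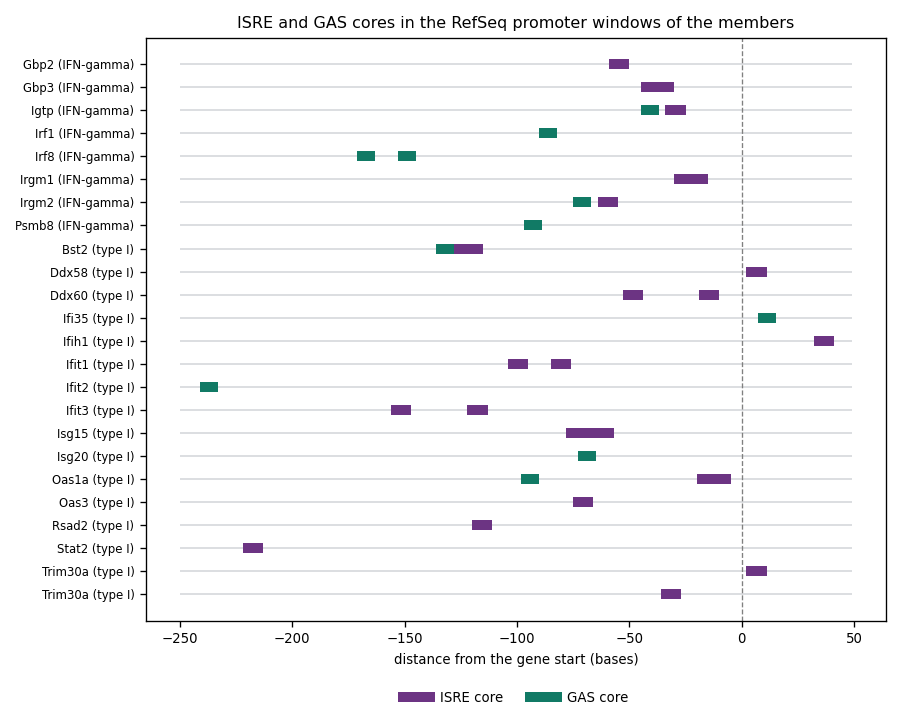
Position of ISRE cores (purple) and GAS cores (green) in the promoter windows of the interferon-stimulated genes that held at least 1 core, in bases from the gene start (dashed line); grey lines are the windows. Cores of IFN-gamma targets lay before the start, and those of Ddx58, Ifi35, Ifih1 and one window of Trim30a after it.

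The arrays of 72 h stood apart from the rest. Median intensity lay between 23.43 and 23.79 on the 36 h arrays, between 21.76 and 22.08 on those of 48 h and between 27.92 and 28.42 on those of 72 h, and log values of replicates correlated at 0.997 to 0.998. Xist, the transcript of the inactive X chromosome, had at most 15.43 intensity units on the 36 h arrays and 24.23 on those of 48 h, but 2427 to 3208.08 on those of 72 h. The Y-linked Eif2s3y had at least 758.25 units on the 36 h arrays and 764.27 on those of 48 h, but 5.17 to 5.81 on those of 72 h. Arrays of 36 h and 48 h thus carried the transcripts of male mice and those of 72 h the transcripts of female mice, in both treatments. Antagomir-31 and Antagomir-SCR at a given time were alike in this, but 72 h, the animals' sex and the set of cultures cannot be told apart. The third Antagomir-SCR array of 72 h, replicate 4, was deposited with 9 decimals, against 2 on every other array. It shared 0 equal values with its replicates, where other pairs of replicates shared 272 to 641, while its correlations with them were in the range of the others.

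The T cell gene Cd3d was at 4983.5 to 5699.7 on all arrays. The markers Cd79a and Cd79b of B cells (at most 18.5) and Adgre1 of macrophages (at most 16.7) were under the limit of the filter. So were Ncr1 of NK cells (at most 19.6) and Itgax and Xcr1 of dendritic cells (at most 18.4). Other genes of the same lists were higher. Cd22 reached 49.7 and Pax5 41.9 in the B cell list. In the macrophage list Csf1r reached 75.3, Cd14 68.4, Lyz2 43.5, Fcgr1 37.1 and Cd68 29.2. In the dendritic cell list Batf3 reached 3869.7, Zbtb46 59.2, Siglech 43.5 and Flt3 41.2. Cd8a reached 38.0 and Cd8b1 29.3 in the list of CD8 T and NK cells. Klrk1, which encodes the receptor NKG2D of NK and activated T cells, was at 2296.4 to 3416.5 in the list of CD8 T and NK cells.

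The sums of 5 of 9 marker lists did not overlap between the treatments at 72 h, where 24.2% of all single genes tested did not overlap. The summed intensity of the 6 T helper genes on the array (of 8 listed) was 14548.9 to 14917.0 with Antagomir-31, against 15088.8 to 15233.5 with Antagomir-SCR, and that of the 6 Th1 genes 12710.3 to 13180.8, against 13333.9 to 13525.9. The dendritic cell list (6 of 7 on the array), which Batf3 dominates, summed to 3412.1 to 3712.7 with Antagomir-31, against 3905.6 to 4031.8 with Antagomir-SCR, and the regulatory T cell list to 2742.0 to 2822.8, against 2832.8 to 2913.0. The Th2 list lay higher, at 124.2 to 133.8 with Antagomir-31, against 108.0 to 122.6 with Antagomir-SCR, while the ranges of the CD8 T and NK list met (2376.0 to 2529.6, against 2528.9 to 2864.3). Single genes dominate other sums too, Ifng that of the Th1 list and Il2ra that of the regulatory T cell list. In the latter list Il2ra averaged 2366.9 with Antagomir-31, against 2373.3 with Antagomir-SCR, and Ctla4 316.0, against 386.5. Foxp3 was at most 15.8 on all arrays. The part of these sums in the results at 72 h was not tested.

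**Figure D2:**
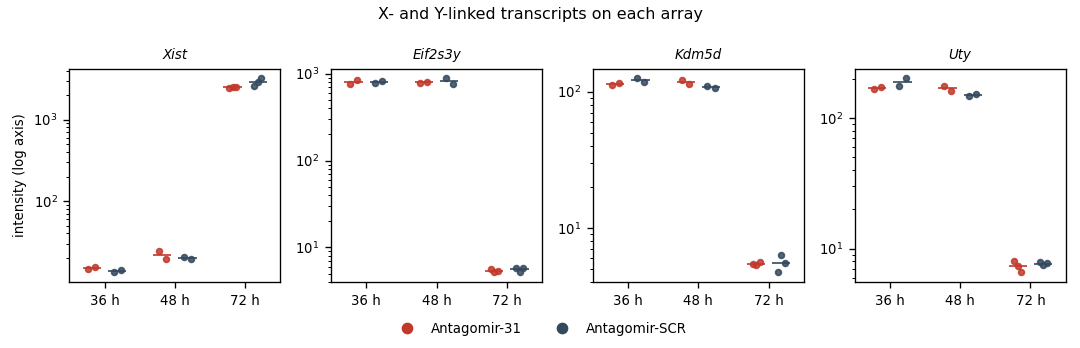
Intensity (log axis) of Xist and 3 Y-linked genes on each array by time, with Antagomir-31 in red, Antagomir-SCR in dark blue and bars at group means. Xist was high at 72 h alone and the Y-linked genes were low there, in both treatments.

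None of the 33 tested genes passed an adjusted p of 0.05 between Antagomir-31 and Antagomir-SCR at 36, 48 or 72 h (limma, Benjamini-Hochberg adjustment over 10916 genes). The same test called 0.0% of all genes at 36 h, 0.0% at 48 h and 1.1% at 72 h. At an unadjusted p under 0.05 the count was 1 of 33 at 36 h (background 5.36%), 3 at 48 h (5.99%) and 11 at 72 h (17.7%). At 36 h and 48 h there were 2 arrays a group, and the median standard error of a member's log2 difference was 0.08. In bulk RNA, fewer expressing cells and less RNA per cell cannot be told apart.

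Parp14, a mono-ADP-ribosyltransferase of the group of Parp9 and the ubiquitin ligase Dtx3l, was the only gene of the list with Antagomir-31 arrays above all Antagomir-SCR arrays at each time. At the single times 15.3%, 13.5% and 9.52% of all genes had that order. The share of all genes with it at every time is not given here. Its intensity at 36 h was 128 and 129 with Antagomir-31, against 115 and 110.1 with Antagomir-SCR. At 48 h it was 137 and 129.96 with Antagomir-31, against 119.97 and 120.5 with Antagomir-SCR. At 72 h it was 337, 345 and 345 with Antagomir-31, against 312, 306 and 324 with Antagomir-SCR. The log2 differences were 0.19 ± 0.0491 (SE), 0.15 ± 0.0491 and 0.12 ± 0.0401, with adjusted p of 0.509, 0.706 and 0.139. Averaged over the times the difference was 0.16 (95% interval 0.0979 to 0.2138, unadjusted p = 6.65e-05, limma adjusted p = 0.0713), where 2 of all genes (0.0183%) and no member were called. The other probe set of Parp14, which is dim, gave 0.01, -0.17 and -0.14, so the direction rests on the brighter probe set.

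Stat2, the type I-specific STAT of ISGF3, had the smallest p of the list at 48 h. Its intensity was 23.9 and 25.9 with Antagomir-31, against 16.4 and 19.0 with Antagomir-SCR, levels under the 27.69 of the filter and in the range of the genes left out as dim. The log2 difference was 0.50 (95% interval 0.3068 to 0.6836, limma adjusted p = 0.363), and its other probe set, dimmer still, gave -0.21. At 72 h it was 37.6, 42.4 and 44.5 with Antagomir-31, against 48.2, 45.3 and 48.8 with Antagomir-SCR, a difference of -0.20 (adjusted p = 0.18). The groups did not overlap at either time and lay in opposite order on this probe set, but the other probe set, at -0.46 at 72 h, showed no change of order.

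Of the other antiviral genes at 36 and 48 h, Xaf1, a promoter of apoptosis, was at 125 and 116 with Antagomir-31, against 137 and 142 with Antagomir-SCR at 36 h (log2 difference -0.22, limma adjusted p = 0.944). Ifih1, which encodes the double-stranded RNA sensor MDA5, was at 1129 and 1125 with Antagomir-31, against 1262 and 1225 with Antagomir-SCR at 36 h (-0.14, adjusted p = 1). Mx1, a dynamin-like antiviral GTPase, was at 30.97 and 35.7 with Antagomir-31, against 29.4 and 28.9 with Antagomir-SCR (0.19, adjusted p = 1). Trim30a (-0.10) and the GTPase gene Igtp (-0.08) followed at 36 h, both with an adjusted p of 1. At 48 h Rsad2, which encodes viperin, was at 27.0 and 26.1 with Antagomir-31, against 34.4 and 28.3 with Antagomir-SCR (-0.23, adjusted p = 0.774). The remaining genes with the smallest p at 48 h were Oas2 (-0.12, adjusted p = 0.834), Iigp1 (0.28, adjusted p = 0.852) and Irf9 (0.14, adjusted p = 0.852).

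At 72 h, the 4 genes of antigen processing had lower intensities with Antagomir-31 on their brightest probe sets, as had 4 of the marker sums above, and none passed the test. Psmb9, a subunit of the immunoproteasome, was at 2197, 2269 and 2278 with Antagomir-31, against 2473, 2447 and 2503 with Antagomir-SCR (log2 difference -0.14, 95% interval -0.234 to -0.0431, limma adjusted p = 0.133). Tap1, a subunit of the transporter that carries peptides to MHC class I, was at 840.3, 809 and 797 with Antagomir-31, against 882, 879 and 899 with Antagomir-SCR (-0.12, adjusted p = 0.163). The groups overlapped for none of Psmb8, Psmb9, Tap1 and Tap2, an order that 14.6% of all genes had. Psmb8 lay wholly higher with Antagomir-31 at 36 h, and its other probe set gave 0.22 at 72 h, where the brighter one gave -0.09. The other probe sets of Tap1, all dim, gave 0.0875, 0.0287 and 0.0506 at 72 h. Over the alternative settings the Tap1 difference was -0.143 to 0.0114. At 36 h Psmb9 was at 932 and 986 with Antagomir-31, against 913 and 975 with Antagomir-SCR, and at 48 h at 1156 and 1222, against 1208 and 1152, so that the groups overlapped at both earlier times.

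Parp9, a partner of Dtx3l, was at 530.4, 547 and 539 with Antagomir-31, against 576, 582 and 608 with Antagomir-SCR at 72 h (-0.13, adjusted p = 0.121). Oas2, which makes the 2-5A messenger that activates RNase L, was at 37.9, 36.4 and 34.1 with Antagomir-31, against 33.05, 33.2 and 32.2 with Antagomir-SCR (0.14, adjusted p = 0.151). Parp9 and Parp14, genes of one complex, thus stood on opposite sides at 72 h. Without Antagomir-SCR replicate 4 no member was called either, with log2 differences of -0.13 for Psmb9 (adjusted p = 0.246), -0.10 for Parp9 (0.259), -0.17 for Stat2 (0.324), 0.15 for Parp14 (0.145) and 0.12 for Oas2 (0.287). The widest spread was that of the exonuclease gene Isg20, at 236, 279.6 and 224 with Antagomir-31, against 147, 170.2 and 282 with Antagomir-SCR, where the groups overlapped (0.36, adjusted p = 0.529).

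**Figure D3:**
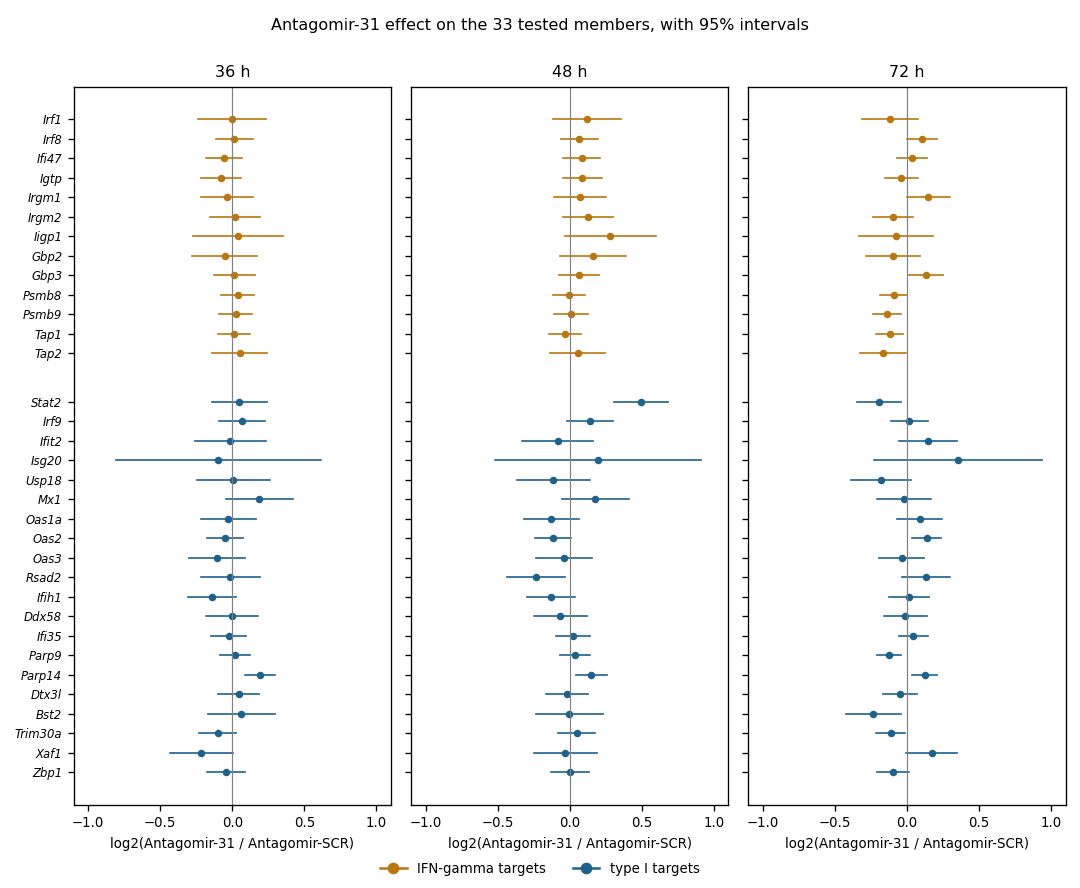
Log2 ratio of Antagomir-31 to Antagomir-SCR for the 33 tested genes at 36, 48 and 72 h, with 95% intervals from the limma fit; orange points are IFN-gamma targets and blue points type I targets. Most intervals cross 0, and at 72 h, among others, those of Psmb9, Tap1, Parp9 and Stat2 lie below 0 and those of Parp14, Oas2 and Gbp3 above it, none of them called after adjustment.

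The arrays of the treatments did not overlap for 10 members at 36 h (30.3%, against 29.3% of all genes), 11 at 48 h (33.3%, against 33.2%) and 13 at 72 h (39.4%, against 24.2%). All Antagomir-31 arrays were lower for 7 members (13.9% of all genes) and higher for 3 (15.3%) at 36 h, lower for 3 (19.7%) and higher for 8 (13.5%) at 48 h, and lower for 8 (14.6%) and higher for 5 (9.52%) at 72 h. The 8 lower at 72 h were Stat2, Irgm2, Parp9, Psmb8, Psmb9, Tap1, Tap2 and Zbp1, and the 5 higher were Irf8, Oas2, Ifi35, Gbp3 and Parp14. Other probe sets gave -0.03 for Irf8 and -0.12 and 0.0007 for Ifi35, so the order of these 2 genes rests on the brightest probe set. Those of Stat2 (-0.46) and Zbp1 (-0.22) kept the direction.

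By arm, the median log2 difference of the type I targets was -0.0146 at 36 h, -0.0118 at 48 h and 0.0017 at 72 h. That of the IFN-gamma targets was 0.014, 0.0729 and -0.0933 at the same times, beside 0.0008, -0.0075 and -0.0089 over all genes tested. At 48 h 11 of 13 IFN-gamma targets had a positive difference and at 72 h 4 of 13, where the medians over all genes lay just under 0. At 48 h the median log2 intensity of the tested members was 7.68 and 7.43 with Antagomir-31, against 7.382 and 7.492 with Antagomir-SCR. One Antagomir-31 array thus stood out there. Over the alternative settings the IFN-gamma median at 48 h was 0.031 to 0.1178. The value at 72 h rested on 1 array: Antagomir-SCR replicate 4 was the highest of the 6 arrays for 9 of the 13 IFN-gamma targets and 21 of all 33 genes (63.6%, against 19.5% of all genes tested), and without it the IFN-gamma median was -0.0156. The change of the effect between times called no member, between 36 and 72 h (0.0183% of all genes) or between 48 and 72 h (0.0366%).

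The signalling genes around the list were measured as well. Ifng, which encodes IFN-gamma itself, was at 8188, 8499 and 8460.2 with Antagomir-31, against 8710.3, 8718 and 8313 with Antagomir-SCR at 72 h, and its log2 difference was 0.01 at 36 h, -0.03 at 48 h and -0.03 at 72 h. At no time was a call made for Ifng, the receptor genes Ifngr1, Ifngr2, Ifnar1 and Ifnar2, the kinase genes Jak1, Jak2 and Tyk2, Stat4 or Tbx21, which encodes the Th1 factor T-bet. Of 75 further interferon pathway genes tested, 3 were called, all at 72 h (4%, against 1.1% of all genes). Socs1, a feedback inhibitor of Janus kinases, was at 329, 321 and 371 with Antagomir-31, against 442, 445 and 422 with Antagomir-SCR, and fell by 0.36 on the log2 scale (SE 0.0698, limma adjusted p = 0.034). Ifi27l2a, a type I interferon-induced gene, was at 116, 101 and 106 with Antagomir-31, against 134, 128 and 140.1 with Antagomir-SCR (-0.32, SE 0.0617, adjusted p = 0.034). Herc6, a ubiquitin ligase of the ISG15 system in mice, rose to 132, 138 and 132 with Antagomir-31, against 120.5, 109 and 114 with Antagomir-SCR (0.23, SE 0.0486, adjusted p = 0.0482), but was at -0.01 when the highest probe set on each array was taken. Without Antagomir-SCR replicate 4 none of the 3 was called (Socs1 -0.38, adjusted p = 0.0634; Ifi27l2a -0.29, 0.0884; Herc6 0.22, 0.0979), and 47 of all genes were, against 120. The call of Socs1 held in 7 of 15 alternative settings, that of Ifi27l2a in 7 of 16 and that of Herc6 in 4 of 16.

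**Figure D4:**
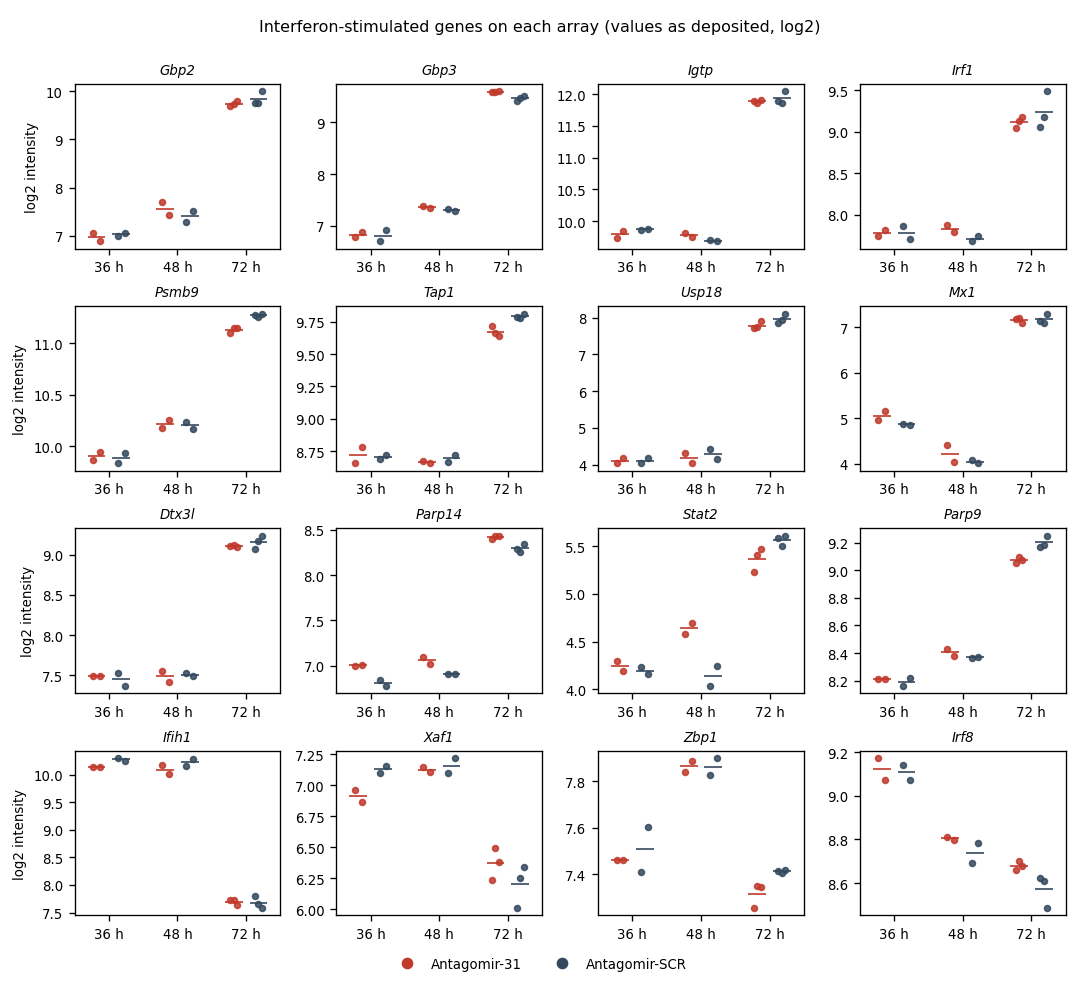
Log2 intensity as deposited on each array for 16 interferon-stimulated genes by time, with Antagomir-31 in red, Antagomir-SCR in dark blue and bars at group means. Differences between 72 h and the earlier times are larger than those between treatments for Gbp2, Gbp3, Igtp, Usp18, Mx1 and Ifih1.

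Between the times the genes differed far more than between treatments. Because the deposited arrays differ in scale by time, values were quantile normalized over all 14 arrays for these comparisons, and intensities below are on that scale. In Antagomir-SCR cells 7 members rose and 4 fell at 48 h relative to 36 h, where 15.5% of all genes rose and 11.4% fell. At 72 h relative to 48 h, 21 rose and 10 fell (all genes 33.1% and 34.9%), and at 72 h relative to 36 h, 21 rose and 10 fell (all genes 35.6% and 35.6%). On the values as deposited the median of all genes shifted by 0.32 from 48 to 72 h and by 0.28 from 36 to 72 h, and the counts were then 23 and 4, and 22 and 4. Over all genes the split was 3882 higher and 3887 lower from 36 to 72 h with quantile normalization and 6718 and 1860 as deposited, and from 48 to 72 h 3616 and 3805, against 7279 and 1539 as deposited.

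The IFN-gamma targets stood higher at 72 h nearly throughout. On the brightest probe sets, 12 of 13 rose relative to 36 h and only Irf8 fell, with a median of 0.87 on the log2 scale. Of the type I targets 9 of 20 rose and 9 fell, with a median of -0.07 (all genes 0.0006). Relative to 48 h, 11 of 13 IFN-gamma targets rose and 1 fell (median 0.74), and of the type I targets 10 rose and 9 fell (median 0.17). The difference between the arms was not tested. Usp18 and Stat2, counted among these rises, lay under the limit of the filter at 36 and 48 h and passed through their 72 h levels. Mx1, also counted, lay near the limit at 36 h (group means of 29.17 and 33.32 as deposited) and under it at 48 h. Its mean over all arrays was raised by its 72 h level. Dim type I targets were left out, among them Mx2 (-0.71), Ddx60 (-0.44), Ifit3 (0.21) and Dhx58 (0.18) from 36 to 72 h. The filter thus bears on these counts and medians. Among type I targets without those that both interferons are known to induce, 11 genes, the medians were -0.17 from 36 h and 0.06 from 48 h.

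All 7 interferon-inducible GTPases tested rose from 36 to 72 h. Gbp2, a guanylate-binding protein that acts on pathogen-containing vacuoles, was at 141 and 146 at 36 h, 178 and 203 at 48 h and 792, 790.0 and 930.4 at 72 h in Antagomir-SCR cells. Its log2 change was 0.41 by 48 h (limma adjusted p = 0.00949) and 2.54 ± 0.0901 (SE) from 36 to 72 h (adjusted p = 5.34e-11), a 5.83-fold difference. Gbp3 was at 115 and 131 at 36 h, 182 and 174 at 48 h and 617.99, 641 and 655 at 72 h (0.53 by 48 h and 2.37 by 72 h). Igtp, an immunity-related GTPase, was at 989 and 976 at 36 h, 906 and 892 at 48 h and 3585, 3497 and 3924 at 72 h (1.90 from 36 h, adjusted p = 1.09e-11). In Gbp2 and Gbp3 the 48 h arrays already lay above those of 36 h, whereas Igtp rose at 72 h only. Iigp1 of the same family was called at 48 h too (0.52, adjusted p = 0.0178).

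Antigen processing and the PARP9 complex shared the direction. Psmb9 was at 968 and 1013 at 36 h, 1322 and 1257 at 48 h and 2317, 2269.6 and 2332 at 72 h (0.38 by 48 h and 1.22 by 72 h). The other 3 antigen processing genes rose from 36 to 72 h as well on their brightest probe sets, by 0.30 for Psmb8 and 0.38 for Tap2 among them. The other probe set of Psmb8 gave -0.53 in that comparison, so the rise of Psmb8 rests on the brighter one. Dtx3l was at 204 and 181 at 36 h, 208 and 200.04 at 48 h and 482, 522 and 541 at 72 h (1.42 from 36 h, limma adjusted p = 4.82e-10), with Parp14 at 1.17 and Parp9 at 0.75. Irf1, the transcription factor that IFN-gamma induces early, was at 254 and 226, 232 and 237, and 475, 522 and 648 at the 3 times (1.18 from 36 h).

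Usp18, Mx1, Ifih1 and Xaf1, type I targets, moved in both directions. Usp18, the protease that removes ISG15 and holds back the type I receptor, was at 16.8 and 19.1 at 36 h, 24.4 and 20.05 at 48 h and 198, 215 and 239 at 72 h, a rise of 3.60 ± 0.1117 (SE) on the log2 scale from 36 h (limma adjusted p = 1.51e-11). Both earlier times lay under the limit of the filter, which Usp18 passed through its 72 h level. The size of this rise is therefore uncertain, and its p-value came after that selection. Mx1 was at 31.2 and 31.3 at 36 h, at 19.0 and 18.2 at 48 h and at 120.5, 119 and 135 at 72 h. It fell by 0.75 to 48 h (limma adjusted p = 0.000501) and was 2.00 higher at 72 h than at 36 h. The 48 h level was under the limit of the filter and the 36 h level near it. The mean of Mx1 over all arrays was raised by the 72 h level, so these values came after that selection. Ifih1 went the other way, with 1320.3 and 1266 at 36 h, 1259 and 1358 at 48 h and 192, 176 and 165 at 72 h (-2.87 from 36 h, adjusted p = 1.58e-12). Xaf1 was at 152 and 155, 156 and 166, and 55.9, 66.5 and 69.8 at the 3 times (-1.27 from 36 h, adjusted p = 3.57e-08).

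All 3 tested sensor genes, Ifih1, Ddx58 (which encodes RIG-I) and Zbp1, fell from 48 to 72 h on their brightest probe sets. On these they were also lower at 72 h than at 36 h. Zbp1, a sensor of Z-form nucleic acids, was at 188 and 211 at 36 h, 254 and 264 at 48 h and 146, 148 and 146 at 72 h, so that it rose by 0.38 to 48 h and fell by 0.82 from there. On the values as deposited these calls were in part lost: Ddx58 was at -0.10 from 48 to 72 h (adjusted p = 0.238) and averaged 96.0 at 36 h and 103.2 at 72 h, and Zbp1 was at -0.09 from 36 to 72 h (adjusted p = 0.143). Ddx58 was at -0.13 from 48 to 72 h (adjusted p = 0.144) with the mean of its probe sets. Of the 2-5A synthetases, Oas2 (-0.61, limma adjusted p = 3.08e-05) and Oas3 (-0.32, adjusted p = 0.0156) fell between 36 and 48 h. Irf8, the IFN-gamma target that fell, was at 599.9 and 567 at 36 h, 460.3 and 483 at 48 h and 348, 351 and 316 at 72 h (-0.31 by 48 h and -0.79 by 72 h). The other genes called by 48 h were Parp9 (0.22) and Tap2 (0.25), and Rsad2 (-0.45) and Ddx58 (-0.50) were among the largest falls from 48 to 72 h. The other probe sets, all dimmer, gave 0.4476 and 0.4503 for Rsad2 and 0.0067 and 0.1082 for Ddx58 in that comparison. Those of Ddx58 gave -0.0781 and 0.8307 from 36 to 72 h. The falls of both genes thus rest on the brightest probe set. Oas1a, another 2-5A synthetase, fell by 0.40 from 36 to 72 h, and Oas2 fell by 0.54. As deposited these were -0.05 (adjusted p = 0.55) and -0.25 (adjusted p = 0.000662), and Rsad2 was at -0.10 from 48 to 72 h (adjusted p = 0.309). Without probe sets of shared sequence, 3 members rose and 3 fell by 48 h, but Mx1, Gbp3 and Tap2 have no other probe set and were absent there. Of the calls by 48 h, that of Oas3 was lost without any 1 of the 4 arrays (adjusted p of 0.0541 to 0.0765). Those of Gbp2 (0.0574 and 0.0815) and Iigp1 (0.125 and 0.112) were lost without replicate 1 of 36 h or replicate 2 of 48 h, and that of Tap2 without replicate 2 of 36 h (0.301) or replicates 1 (0.0903) or 2 (0.188) of 48 h.

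**Figure D5:**
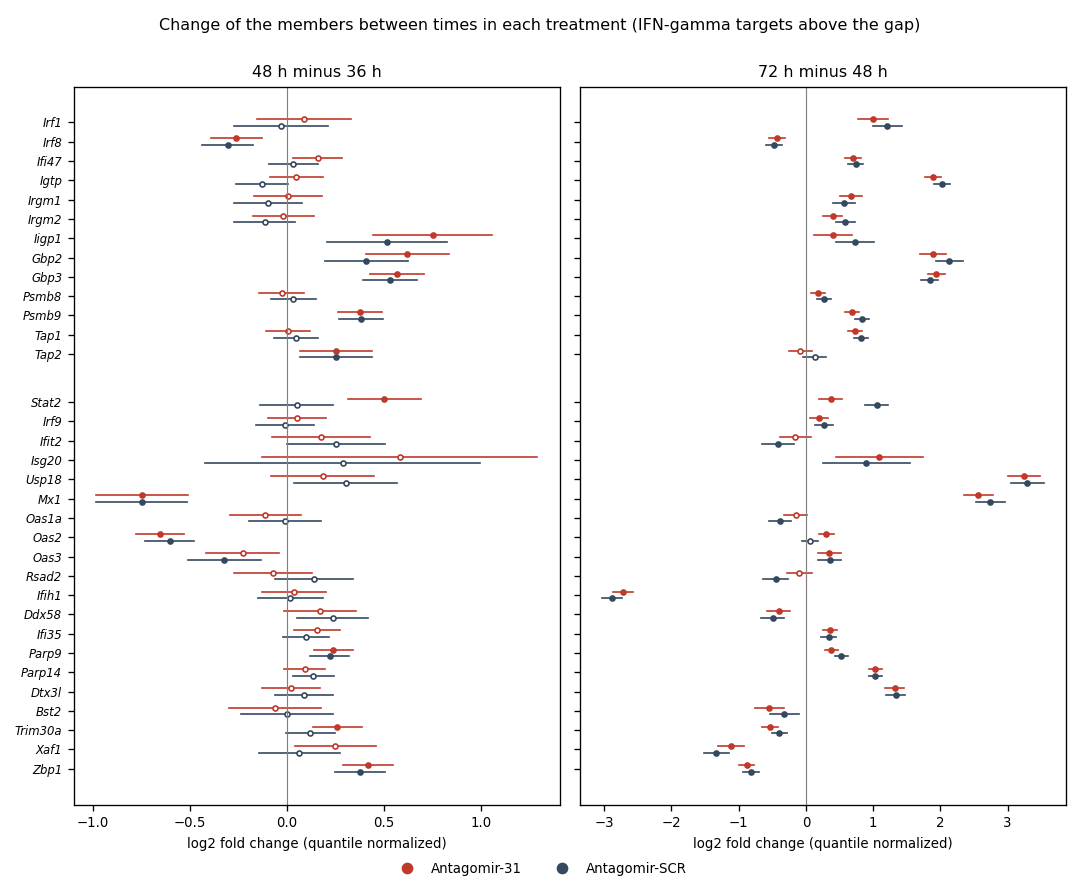
Log2 change from 36 to 48 h and from 48 to 72 h on quantile normalized values for the 33 tested genes, IFN-gamma targets above the gap, with Antagomir-31 in red, Antagomir-SCR in dark blue, 95% intervals, and filled points for an adjusted p under 0.05. The left axis is narrower than the right, and both treatments show the points of Usp18, Mx1, Gbp2, Igtp and Gbp3 farthest to the right for 72 h and that of Ifih1 farthest to the left; Usp18 and Mx1 start from levels under the limit of the filter.

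The times were also compared in the Antagomir-31 arrays, which are separate samples. Called in the same direction in both treatments were 10 members from 36 to 48 h (all genes 18.6%), 28 from 48 to 72 h (59.2%) and 29 from 36 to 72 h (62.2%). Usp18 in Antagomir-31 cells was at 17.2 and 18.8 at 36 h, 22.7 and 18.4 at 48 h and 184, 188 and 210.0 at 72 h. Ifih1 in Antagomir-31 cells was at 1178 and 1166 at 36 h, 1269 and 1136 at 48 h and 187, 186 and 172 at 72 h. The change of animals at 72 h was the same as in Antagomir-SCR cells, so time and the set of cultures cannot be told apart in either treatment.

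Ifng itself fell at 72 h. As deposited it was at 16622 and 16702 at 36 h, 15675 and 15625 at 48 h and 8710.3, 8718 and 8313 at 72 h in Antagomir-SCR cells, and on the quantile normalized scale, which gave it the same value on all 36 h and 48 h arrays, it fell by 1.05 from 36 to 72 h. The receptor gene Ifngr1 rose by 1.06 and Socs1 by 1.54, while Ifnar1 fell by 1.18, Jak2 by 1.30 and Stat4, the transducer of IL-12 signals, by 2.19, and Tbx21 rose by 0.44. Among the 75 further pathway genes 37 rose (49.3%) and 24 fell (32%) from 36 to 72 h, against 35.6% and 35.6% of all genes. Of the 11 other IFN-gamma targets in that list 10 rose (beside 35.6% of all genes), and Cd274, which encodes PD-L1, fell by 1.90.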

How the data were processed

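RNA from Th1 rep cells was measured on 14 Affymetrix Mouse 430_2 arrays. The authors used GCOS to read them and RMA, run in affy, to normalize them (versions not given in the sources used here), and the deposited values are intensity on the linear scale, which array medians show to be scaled within each time point. Of 45101 probe sets, 64 were controls, 34945 had 1 symbol, 932 several and 9160 none. A gene was represented by its probe set of 1 symbol with the highest mean log2, and the brightest 60% (10916 of 18193 genes, mean intensity of at least 27.69) were tested. Treatments were compared with limma 3.58.1 (R 4.3.3) on log2 values in 1 fit of 6 groups, with Benjamini-Hochberg adjustment over all 10916 genes and a threshold of 0.05. Times were compared by the same fit after quantile normalization over all arrays. The fit was tested on simulated data. Precision is limited by how few arrays each group has.

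The genes and lists were chosen with earlier results of these data known. Named were all members called, or the 6 largest changes in each direction where more than 12 were called, or the 6 smallest unadjusted p where fewer than 3 were. Named besides were interferon-signalling genes and the other pathway genes called (the 4 largest in each direction). Other genes were named after their values were seen, and 1 signalling gene is not reported here. Alternatives were other scalings, filters, rules for probe sets, a trend in the prior variance, a replicate block and leaving out each array. RefSeq sequences (GRCm38.p6) were matched by symbol with Python 3.11.15.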

Additional observations from a re-analysis of the deposited data

Results flagged for a closer look

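In some members the arrays of the treatments did not overlap at both of the times compared and lay in opposite order. The share of all genes with such an opposite order is not given here, so these cases cannot be set against it. At a single time, 9.52% to 19.7% of all genes lay wholly higher or wholly lower with Antagomir-31. The differences below are those of the Antagomir-31 effect (log2 of Antagomir-31 over Antagomir-SCR) at the later time minus that at the earlier time. From 36 to 48 h these were the immunity-related GTPase genes Ifi47 (0.1406) and Igtp (0.167), whose difference was not tested. From 36 to 72 h they were Oas2 (0.1875, limma adjusted p = 0.395) and Psmb8 (-0.13, adjusted p = 0.508). From 48 to 72 h they were Stat2 (-0.6907, adjusted p = 0.0868), Oas2 (0.2544, adjusted p = 0.313) and Parp9 (-0.1638, adjusted p = 0.401). On the other probe set of Stat2 the effect was -0.21 at 48 h and -0.46 at 72 h, without opposite order, and on the other probe set of Psmb8 it was -0.07 at 36 h and 0.22 at 72 h. None of the tested differences passed the threshold.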

How the results depend on the processing

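Among 108 counts of members called between the treatments under other settings, 104 were 0. The exceptions were Parp14 on the average over the times with a mean log2 of at least 6 (1 member, limma adjusted p = 0.0301) and with the prior variance allowed a trend (1 member, 0.0401), Psmb9 at 72 h with that trend (1 member, 0.0464, where 422 of all genes were called, against 120), and Stat2 in the change of the effect from 48 to 72 h without Antagomir-SCR 48 h replicate 2 (1 member, 0.0383). Leaving out each array in turn gave 0 to 1 for that last count. With a trend 36 of all genes were called on the average, against 2, and 14 with the higher filter. For the time course 43 of 44 counts lay within 1.5 times, and without probe sets of shared sequence 6 members were called from 36 to 48 h, against 11. That setting drops all probe sets with names in _a_at, _s_at or _x_at. Mx1, Gbp3 and Tap2, called in the main fit, have no other probe set and were absent, so the counts rest on unlike numbers of genes. Leaving out each Antagomir-SCR array gave 8 to 9 members from 36 to 48 h, 29 to 31 from 48 to 72 h and 30 to 31 from 36 to 72 h. From 48 to 72 h Ifnar2 (-0.33) was at 0.0414 as deposited and 0.2236 with the mean of probe sets, and Tyk2 (0.12) at -0.0622 with that mean. Herc6 at 72 h was at -0.0102 with the highest probe set on each array. The cause was not tested. The median of the type I targets had no settled direction (-0.3557 to 0.4948 from 48 to 72 h and -0.2127 to 0.2606 from 36 to 72 h), while that of the IFN-gamma targets was 0.7116 to 1.0686 and 0.7744 to 1.0874.

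Arrays of the same number did not deviate together (correlations of 0.052 at 36 h, -0.164 at 48 h and -0.073 to 0.054 at 72 h), so the numbers do not pair the samples. With the replicate number as a block, 0 members were called between the treatments at each time, and 22 of all genes at 72 h, against 120. In the time course the block called 11, 29 and 30 members. The arrays of 72 h carried transcripts of the other sex, so a number shared with an earlier time cannot mark a shared culture there. Crossing the numbers at 48 h, chosen after seeing the data, called 0 members and 0 genes.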

Other observations

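Other interferon-induced genes of the 75 further pathway genes also differed between the times. From 36 to 72 h in Antagomir-SCR cells Ly6e, a GPI-anchored surface protein, rose by 2.63 on the log2 scale (1.04 without probe sets of shared sequence), Lgals3bp by 2.17, Lgals9, a galectin, by 1.78 and Ifitm1 by 1.60. In the same comparison Ifi27l2a fell by 2.78 and Slfn2, a schlafen family gene, by 1.48, beside Stat4 and Cd274 above. From 36 to 48 h Phf11d (0.59), Ifitm1 (0.57), Ifi27l2a (0.49) and Gbp6 (0.46) rose, and Eif2ak2, which encodes the kinase PKR (-0.45), Ifna4 (-0.40), Ifi203 (-0.38) and Cd274 (-0.33) fell. The call of Eif2ak2 was lost with the mean of its probe sets (-0.05, adjusted p = 0.68), and those of Eif2ak2, Gbp6, Ifna4 and Ifi203 were lost when some single arrays were left out, with adjusted p up to 0.197, 0.124, 0.11 and 0.0985. Ifi27l2a thus rose to 48 h and then fell by 3.27 to 72 h.

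Batf3, counted among dendritic cell markers, was at 1245.7 to 3869.7. The summed dendritic cell list lay between 1397.5 and 1545.1 on the 36 h arrays and between 1561.6 and 1751.1 on those of 48 h. On the 72 h arrays it lay between 3412.1 and 4031.8. Of the same list, Itgax and Xcr1 were at most 18.4 throughout, while Zbtb46 was at 49.5 to 59.2 and Siglech at 31.3 to 43.5. The summed Th1 list lay between 19043.7 and 19875.5 on the 36 h arrays, between 17680.0 and 18264.6 on those of 48 h and between 12710.3 and 13525.9 on those of 72 h. The part of these in the changes of the interferon-stimulated genes was not tested.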
